A study of Mus musculus with 32 samples.

Results

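The lipid droplet and triglyceride assembly genes are 8 mouse genes chosen by symbol: the perilipin genes Plin1, Plin2 and Plin5, the CIDE genes Cidea and Cidec, Fitm1, Bscl2 and Dgat2. Their rows were taken from 4 comparisons of mice whose adipocytes were targeted for Bcl6 deletion (AKO) with controls (WT). All 8 appeared in at least 1 of the 4 lists of changed genes that the authors deposited, which together hold 2508 genes. The 8 genes made 11 entries: 2 in male inguinal fat, 1 in female inguinal fat, 6 in male perigonadal fat and 2 in male liver. Each of the 11 entries was lower in AKO. Over all tested genes, 4.01%, 2.63%, 5.46% and 0.244% were listed as lower in these comparisons, in that order. The members were chosen with earlier results of these data known, so these counts may reflect that choice and were not tested.

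Triglyceride is made in the endoplasmic reticulum, where DGAT2 catalyses the last step, and is packed into droplets that bud from that membrane. Seipin, the product of Bscl2, sits at the junction between the endoplasmic reticulum and the growing droplet, and FIT proteins such as the product of Fitm1 bind triglyceride and help it leave the membrane. Perilipins then coat the droplet and control the access of lipases. CIDE proteins gather where droplets touch and pass lipid from the smaller to the larger, and in white fat CIDEC is needed for the single large droplet of the mature adipocyte.

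Poly(A) RNA was sequenced from C57BL/6 mice that were all Bcl6 fl/fl, that is, with loxP sites around part of both Bcl6 alleles. WT mice carried no Cre, and AKO mice carried Adipoq-Cre, a Cre recombinase driven by the promoter of the adiponectin gene, which is active in adipocytes and not in hepatocytes. No group had Cre without loxP sites, so effects of the deletion and of Cre cannot be told apart, and the labels give no age. There were 32 samples in 8 groups of 4, a WT and an AKO group for each of 4 tissues. Males gave inguinal fat, perigonadal fat and liver, and females gave inguinal fat. By the animal numbers, both male fat depots came from the same mice and the livers from others.

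Counts per library were used for both sets of inguinal fat and for liver, and they cover only genes that the authors had listed as changed. A gene without a row is called not listed here, which does not say that it did not differ. The size factors that the authors used to scale libraries, recovered from their mean counts, spanned 0.373 to 1.74 (male inguinal), 0.402 to 1.59 (female inguinal) and 0.603 to 2.2 (liver). In females they were lower in WT (0.786 ± 0.285) than in AKO (1.37 ± 0.233; SD, n = 4, two-sided exact permutation test, p = 0.0286), so WT libraries were shallower there. Bcl6 itself was listed for female inguinal fat alone. It had 988 to 1442 normalized counts in the WT libraries and 2295 to 2800 in the libraries labelled AKO. Whole-gene counts do not separate deleted exons from the rest and so do not check the labels, and AKO below means a library labelled so. Of the 8 adipocyte markers, Adipoq and Lpl were listed in female inguinal fat and none in male inguinal or perigonadal fat, and none of 5 hepatocyte markers was listed in liver. The tissue labels were therefore not checked by markers, apart from Adipoq and Lpl at means of 57230 and 152391 normalized counts in the authors' deposited table for females.

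Plin2, Plin5 and Bscl2 were the members listed in 2 comparisons each, and their promoter windows are shown because the same direction recurred for them. Each window holds 250 bases before and 50 after the most upstream start in RefSeq (GRCm38.p6), printed 5′ to 3′ on the gene's strand. The windows lie at chr4:86670010-86670309 (minus strand, Plin2), chr17:56117499-56117798 (minus strand, Plin5) and chr19:8837217-8837516 (plus strand, Bscl2). Capitals mark matches on either strand to AGGTCA, the half-site of nuclear receptors, or to CACGTG, an E-box.
Plin2: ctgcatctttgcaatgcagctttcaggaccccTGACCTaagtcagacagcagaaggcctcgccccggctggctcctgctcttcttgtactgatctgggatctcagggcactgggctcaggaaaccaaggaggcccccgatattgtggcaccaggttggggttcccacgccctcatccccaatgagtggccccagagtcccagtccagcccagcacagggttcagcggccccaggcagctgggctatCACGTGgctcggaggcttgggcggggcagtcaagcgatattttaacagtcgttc
Plin5: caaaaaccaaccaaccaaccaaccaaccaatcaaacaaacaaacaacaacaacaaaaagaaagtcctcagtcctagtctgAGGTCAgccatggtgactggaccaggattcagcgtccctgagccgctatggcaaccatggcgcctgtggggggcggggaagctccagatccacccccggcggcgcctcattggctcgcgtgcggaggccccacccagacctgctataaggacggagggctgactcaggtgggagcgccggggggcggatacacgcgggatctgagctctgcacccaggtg
Bscl2: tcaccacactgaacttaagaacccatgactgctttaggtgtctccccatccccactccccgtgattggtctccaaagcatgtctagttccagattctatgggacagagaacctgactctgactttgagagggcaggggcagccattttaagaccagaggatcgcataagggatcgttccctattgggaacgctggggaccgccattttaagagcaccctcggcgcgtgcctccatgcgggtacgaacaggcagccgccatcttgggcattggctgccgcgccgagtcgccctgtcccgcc
The Plin2 window held the half-site from base -218 to -213 and an E-box from base -4 to 2, across the start, where base 1 is the start. The Plin5 window held the half-site from base -170 to -165, and the Bscl2 window held neither. Of 32851 promoter windows of 300 bases, 16.3% held the half-site and 7.15% the E-box. The spaced palindrome TTCNNNGAA, bound by STAT factors and contained in the BCL6 consensus, was in 8.3% of all windows. The relaxed direct repeat, AGGNCA written again after 1 free base as in elements bound by PPAR and RXR, was in 0.381%. Neither occurred in the windows of Plin1, Plin2, Plin5, Cidec, Fitm1 or Bscl2, the 6 members searched. A match describes letters and not a bound site.

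The droplet genes listed in male inguinal fat were Bscl2, which acts at droplet formation, and Plin1, which coats the finished droplet. Both were lower in AKO. They are 2 of the 8 members (25%), where 4.01% of the 12554 genes tested were listed as lower. The members were chosen with results of these data known, so that contrast was not tested. In bulk tissue, fewer adipocytes and less RNA per adipocyte cannot be told apart.

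Bscl2 (chromosome 19, 8837467 to 8848683, plus strand) stood at 4464, 4295, 4909 and 5071 normalized counts in WT replicates 1 to 4 and at 3649, 3112, 3452 and 3674 in AKO replicates 1 to 4. The groups did not overlap, and the lowest WT library stood 16.9% above the highest AKO library. Such a lack of overlap held for 90.8% of the listed genes with counts, which were listed for their difference. Bscl2 fell by 0.43 on the log2 scale (SE 0.08, edgeR adjusted p = 0.0115 over all genes tested), from 4685 ± 365 to 3472 ± 260 (SD, n = 4). It was the one that this test called of the 2 members with counts. Of the 1074 genes with counts the test called 285 lower, which is 2.27% of the 12554 genes the authors tested. Genes without counts could not be called here. The exons of Bscl2 overlap those of Gng3 on the other strand over 6.75% of their length and those of AC129217.1 on the same strand over 4.05%, so some reads may be shared.

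Plin1, the main droplet coat gene of white adipocytes (chromosome 7, 79720218 to 79732903, minus strand), had 20810, 14601, 15903 and 17275 normalized counts in the WT libraries. The AKO libraries had 14285, 12421, 12826 and 13408. All 4 AKO libraries lay below the WT libraries, but the gap was only 2.22%, and WT replicate 1 stood highest. The means were 17147 ± 2675 and 13235 ± 808 (SD, n = 4), a log2 fold of -0.37 ± 0.11 SE. The edgeR p was 0.00766, and the adjusted p of 0.0954 over all genes tested missed the threshold. The call changed with the method. DESeq2 gave an adjusted p of 0.0144, and in the authors' deposited table Plin1 has an adjusted p of 0.0231. Without WT replicate 1 the log2 fold was -0.27 (edgeR adjusted p = 0.227).

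With all libraries, Plin1 and Bscl2 were lower by like amounts, but this rested on WT replicate 1. Without that library the edgeR log2 folds were -0.267 for Plin1 and -0.455 for Bscl2. Within a library, Plin1 reads made 3.68 ± 0.661 times the Bscl2 reads in WT and 3.82 ± 0.162 times in AKO (SD, n = 4). By replicate the ratios were 4.66, 3.4, 3.24 and 3.41 in WT and 3.92, 3.99, 3.72 and 3.65 in AKO. The groups overlapped through WT replicate 1 alone, and the other WT libraries lay below every AKO library. Of the cell markers, none of 8 adipocyte, 8 macrophage or 12 brown or beige genes was listed in these libraries. Lrrn4, a mesothelial gene, was at 24.2 to 40.5 normalized counts in WT and 100 to 139 in AKO, and the muscle gene Acta1 at 64.4 to 102 and 22.2 to 55.5. The mural gene Cspg4 fell from 1903 ± 329 to 1008 ± 62.0 normalized counts (SD, n = 4, log2 fold -0.91 ± 0.11 SE, edgeR adjusted p = 0.00122). The endothelial gene Pecam1 was at 3420 ± 202 in WT and 3923 ± 64.8 in AKO, without overlap (log2 fold 0.20 ± 0.06 SE, edgeR adjusted p = 0.113). These opposite moves offset each other in part. The summed level of both was 4868 to 5796 in WT (mean 5324) and 4814 to 5076 in AKO (mean 4930). Their part in the Bscl2 and Plin1 values was not tested. Per kilobase of exon, Plin1 stood at 3688 normalized counts in WT and Bscl2 at 794.

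**Figure D1:**
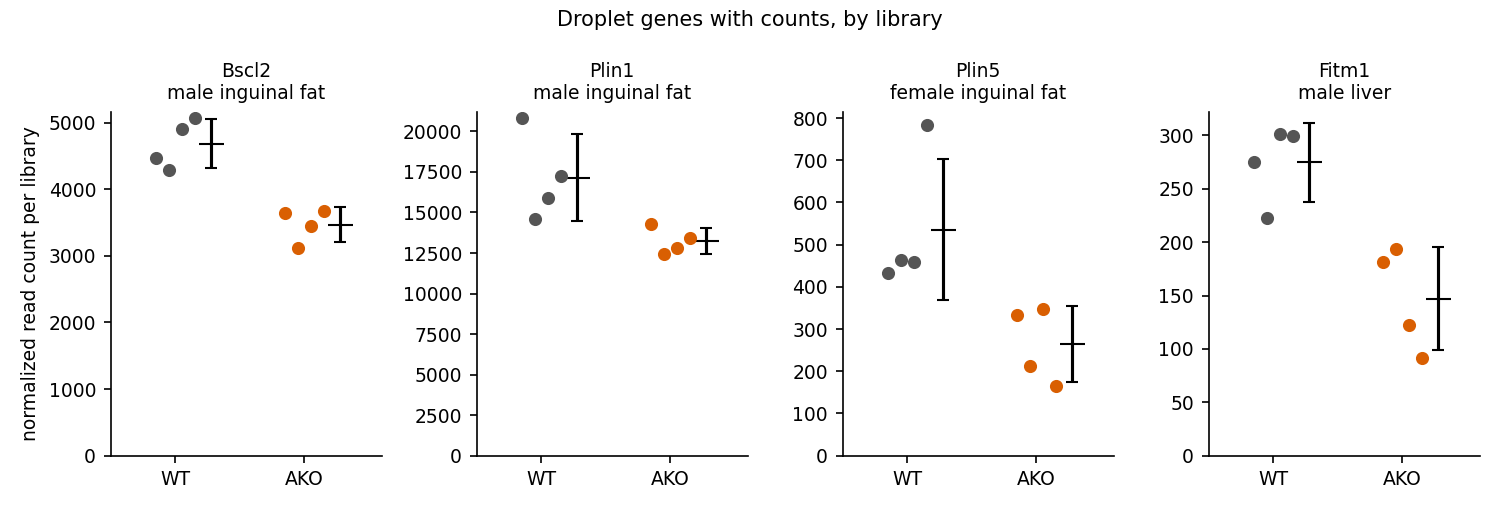
Normalized read counts of the 4 members that had counts, 1 point per library, with the mean and SD of each group of 4 beside the points and the axis starting at 0. In each panel the 4 AKO libraries lie below the 4 WT libraries, narrowly for Plin1 and with WT replicate 4 far above the others for Plin5.

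In female inguinal fat, Plin5 was the one listed member (12.5% of 8, where 2.63% of 13546 tested genes were listed as lower). Here too the contrast was not tested, since the members were chosen with results known. Plin5 encodes the perilipin of oxidative tissues, which links droplets to mitochondria (chromosome 17, 56111601 to 56117596, minus strand). WT replicates 1 to 4 had 433, 463, 459 and 785 normalized counts, and AKO replicates 1 to 4 had 333, 212, 347 and 165. None of the AKO libraries reached the lowest WT library, as held for 89.1% of the listed female genes. The means were 535 ± 167 and 264 ± 89.8 (SD, n = 4), and the log2 fold was -1.03 ± 0.27 SE. The edgeR p was 0.00276 and the adjusted p over all genes tested was 0.0802, so this test did not call Plin5. Of the 790 genes with counts it called 115 lower, which is 0.849% of the 13546 genes the authors tested. Without WT replicate 4, the high library, the log2 fold was -0.78 (edgeR adjusted p = 0.215).

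Marker genes of other cell types were listed in both directions in the same female libraries. Of the 13546 tested genes, 2.63% were listed as lower and 434 genes as higher. The 4 of 8 mammary epithelial markers with counts (Krt8, Krt7, Csn3 and Cldn7) summed to 14087 to 18245 normalized counts in WT and 6066 to 9434 in AKO. Of these, edgeR did not call Cldn7 (adjusted p = 0.0747), but called it with table totals as library sizes (0.0229). The 3 of 8 macrophage markers with counts (Csf1r, Lyz2 and Cd163) summed to 13821 to 17225 in WT and 17178 to 23526 in AKO, so the sums overlapped slightly. By edgeR only Csf1r was called (adjusted p = 0.0481, Cd163 0.0587, Lyz2 0.0952). The Csf1r call was lost with table totals (0.565). Adipoq and Lpl, the 2 of 8 adipocyte markers with counts, summed to 157116 to 197014 in WT and 235087 to 250218 in AKO, so they were higher while Plin5 was lower. By edgeR Adipoq was called (adjusted p = 0.0122) and Lpl was not (0.0534). With table totals neither was called (0.0892 and 0.593). Cspg4, the 1 of 6 endothelial or mural markers with counts, fell from 2654 ± 201 to 1387 ± 214 (SD, n = 4, log2 fold -0.94 ± 0.11 SE, edgeR adjusted p = 0.00143). Lrrn4, the 1 of 8 progenitor or mesothelial markers with counts, was at 59.7 to 94.2 in WT and 121 to 226 in AKO. Its log2 fold was 1.13 ± 0.24 SE (adjusted p by edgeR = 0.036, and 0.0171 to 0.119 with single libraries left out). The sums hold only markers that the authors had listed as different between these same groups, so their separation reflects that choice. They do not show that a cell type shifted. Counts of the other markers were not used here, so which of them stand at 0 was not measured. The part of these cells in the Plin5 difference was not tested.

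In male perigonadal fat, 6 of the 8 members (75%) were listed and all 6 were lower, where 5.46% of 13361 tested genes were listed as lower. The members were chosen with results of these data known, so this contrast may reflect that choice and was not tested. Values for this depot come from the authors' deposited table, with no values per library. Cidea, a CIDE gene best known from brown fat (chromosome 18, 67343604 to 67367785, plus strand), had the largest change of the 6, with a log2 fold of -1.60 ± 0.28 SE (3.03-fold lower) and an adjusted p of 8.95e-07 in the authors' deposited table. It ranked 14 among 729 lower genes by fold. Its mean was only 38.3 normalized counts, the lowest of the 6.

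Cidec, the CIDE gene of white adipocytes (chromosome 6, 113424634 to 113435760, minus strand), lay at the other end of expression. Its mean of 90492 normalized counts was the second highest of all 1488 genes in the authors' deposited table for this depot. There its log2 fold was -0.55 ± 0.08 SE (fell by 31.6%, adjusted p = 2.66e-10). The 2 CIDE genes thus stood at opposite ends of the members' levels and were lower together.

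The perilipin genes were listed with unequal changes. Plin5 had a log2 fold of -1.07 ± 0.19 SE (2.1-fold lower, adjusted p = 1.75e-06) at a mean of 195 in the authors' deposited table. Plin2, the coat gene found in most tissues (chromosome 4, 86648386 to 86670060, minus strand), had -0.23 ± 0.08 (adjusted p = 0.0387) at a mean of 7603 there, and ranked 695 of 729 lower genes by fold. Plin1 was not listed for this depot. Dgat2 (chromosome 7, 99153658 to 99182719, minus strand) had a log2 fold of -0.63 ± 0.20 SE (fell by 35.3%, adjusted p = 0.0196) at a mean of 38369 in the authors' deposited table. Bscl2 had -0.36 ± 0.13 (adjusted p = 0.0473) there, close to the threshold of 0.05.

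The median log2 fold of the 6 was -0.59, beside -0.49 over all 729 lower genes of the authors' deposited table. At an adjusted p under 0.01 there, 3 of the 6 remained (Cidec, Cidea and Plin5). The 3 with at least a 1.5-fold change were Cidea, Plin5 and Dgat2.

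**Figure D2:**
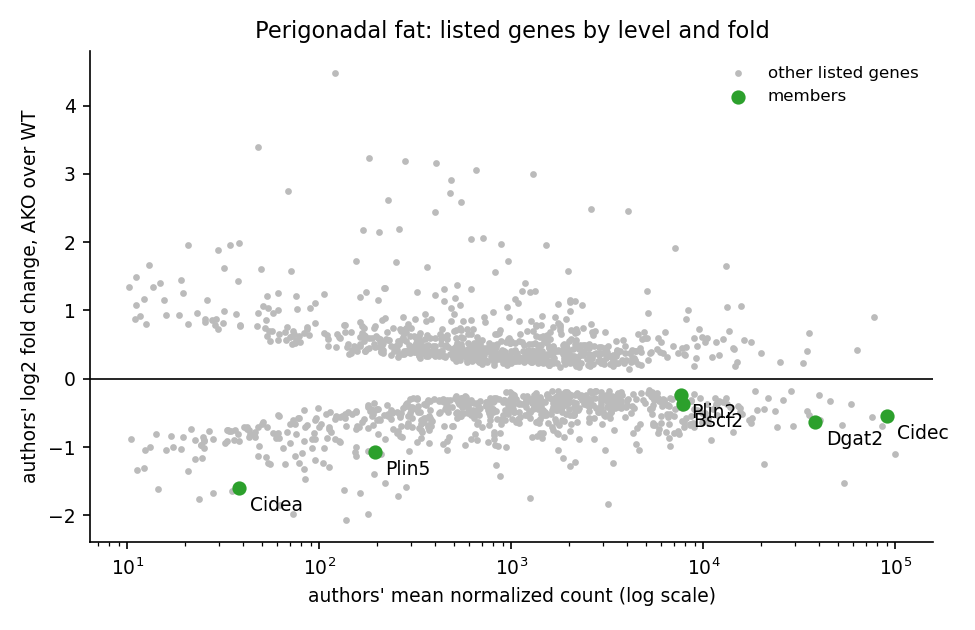
Authors' log2 fold change (AKO over WT) against the authors' mean normalized count on a log axis for the 1488 genes listed in perigonadal fat, with the 6 members named. The members lie below 0 at both ends of the level axis, from Cidea at a mean of 38.3 to Cidec at 90492.

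Per kilobase of exon, the order of perigonadal levels from the means in the authors' deposited table was Cidec (48756), Dgat2 (12445), Plin2 (2165), Bscl2 (1331), Plin5 (93.2) and Cidea (34.3). The 4 most abundant members had log2 folds from -0.23 to -0.63 in the authors' deposited table, and the 2 least abundant had the largest. Listing needed an adjusted p under 0.05, so a gene with a wide standard error had to have a large fold to be listed. The standard errors were 0.28 for Cidea and 0.19 for Plin5, and 0.08 to 0.20 for the 4 most abundant. How far the listing made this order was not tested. Without values per library, the spread behind it was not measured.

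In the same depot, marker genes of other cells were listed in both directions. Of the 13361 tested genes, 5.46% were listed as lower and 759 genes as higher. The authors' deposited table holds 4 of 8 progenitor or mesothelial markers, all lower (Dpp4, Cd55, Lrrn4 and Krt19, log2 folds from -0.42 to -1.05). It holds 3 of 8 macrophage markers, all higher (Cd68, Csf1r and Mrc1, 0.38 to 0.58), and 2 of 8 epithelial markers, both lower (Krt7 and Krt14). Of 12 brown or beige adipocyte markers, the authors' deposited table lists Cox8b, a respiratory chain gene of thermogenic fat, at -1.62 ± 0.24 and a mean of 135, and the coactivator gene Ppargc1a at 0.47 ± 0.14. Ucp1 was not listed in any of the 4 comparisons. What these cells contributed to the values of Cidea and Plin5 was not tested.

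In liver, where Adipoq-Cre is not known to act, the comparison asked what changes in an organ that keeps Bcl6. The listed members were Fitm1 and Plin2, both lower (25% of 8, where 0.244% of about 11472 tested genes were listed as lower). As for the fat depots, this contrast was not tested, since the members were chosen with results known. Fitm1 (chromosome 14, 55575617 to 55576954, plus strand) had 275, 223, 302 and 300 normalized counts in WT replicates 1 to 4, and 181, 193, 122 and 91.9 in AKO replicates 1 to 4. The groups did not overlap, as held for 100% of the 34 liver genes with counts, and the AKO values spread more widely. The means were 275 ± 36.7 and 147 ± 48.2 (SD, n = 4), a log2 fold of -0.90 ± 0.22 SE. The edgeR p was 0.00249 and the adjusted p over all genes tested was 1, so this test did not call Fitm1. It called 0 of the 34 genes with counts lower. DESeq2 gave an adjusted p of 0.0802, and the authors' deposited table gives 0.0243.

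AKO replicate 4, the lowest library for Fitm1, has a description that names WT perigonadal fat while its title, tissue and genotype say AKO liver. Without it the log2 fold was -0.71 ± 0.18 SE (edgeR adjusted p = 1). An antisense gene, Gm15932, covers 11.2% of the Fitm1 exons. Plin2 had no counts here. In the authors' deposited table its log2 fold was -0.48 ± 0.10 SE (fell by 28.1%, adjusted p = 0.00264) at a mean of 4480, which ranked 9 of 37 by level.

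Pparg, which encodes a nuclear receptor that drives lipid storage genes, was the one regulator of storage listed in liver. It had 223 ± 50 normalized counts in WT and 117 ± 36.5 in AKO (SD, n = 4), a log2 fold of -0.95 ± 0.23 SE (edgeR adjusted p = 0.875). Pparg was also the one of the 8 adipocyte markers listed in liver, and the part of adipocytes in the Fitm1 value was not tested. Of the 33 other liver genes with counts, its pattern over the 8 libraries was the nearest to that of Fitm1 (root-mean-square difference 0.23 in log2, where the median gene stood at 0.46). Fitm1 reads made 1.26 ± 0.241 times the Pparg reads in WT and 1.26 ± 0.238 times in AKO (SD, n = 4). Pparg was picked as the nearest pattern in these same libraries, so the like ratios restate that choice.

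**Figure D3:**
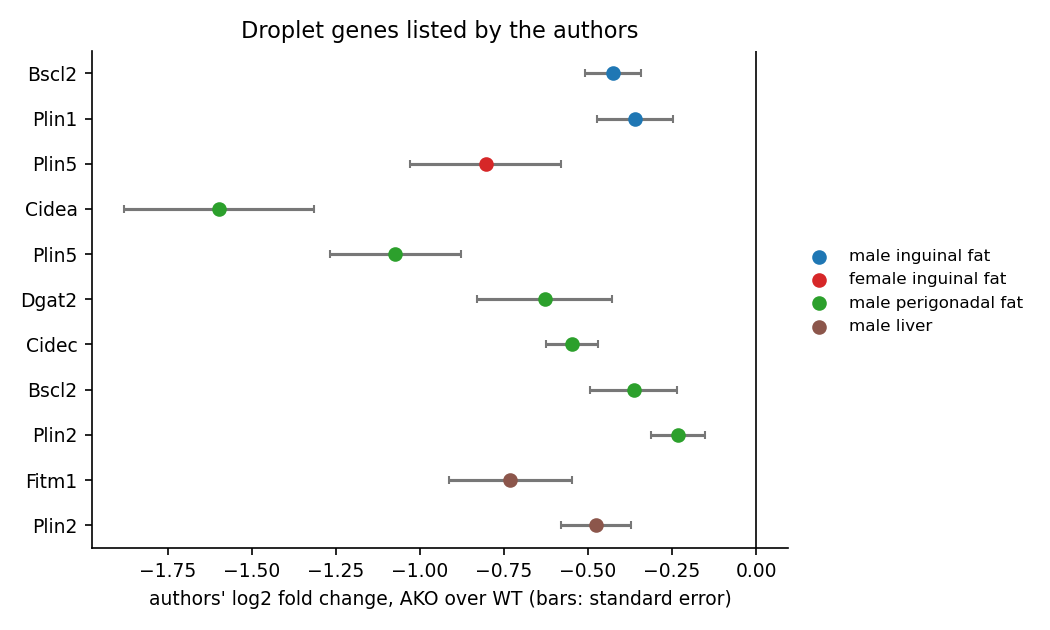
Authors' log2 fold change (AKO over WT) of the 11 entries of the 8 members, with bars for the standard error and colours for the tissue. All 11 points lie below 0, from -1.60 for Cidea to -0.23 for Plin2, both in perigonadal fat.

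Across tissues, the recurring members kept their direction. Bscl2 was listed in both depots of the same male mice, at -0.43 ± 0.08 in inguinal and -0.36 ± 0.13 in perigonadal fat in the authors' deposited tables. Plin5 stood at -0.80 ± 0.22 in female inguinal and -1.07 ± 0.19 in male perigonadal fat, and Plin2 at -0.23 ± 0.08 in perigonadal fat and -0.48 ± 0.10 in liver, again in the authors' deposited tables. The differences between these values were not tested. No member (0 of 8) had counts in both inguinal tables, so the interaction of sex and genotype could not be fitted for any. Plin1 and Fitm1 were each listed in 1 tissue, as were Cidea, Cidec and Dgat2, and it is not shown that their response differed elsewhere.

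The other genes of droplet biology were read from fixed lists. Of 20 symbols of other droplet proteins, some of them 2 names of the same gene, Tmem159 was listed in both inguinal tables and was higher. It encodes the partner that seipin binds at sites of droplet formation (promethin, also LDAF1). Tmem159 was the 1 symbol of the 20 listed in each inguinal table. Of all tested genes, 570 of 12554 in male and 434 of 13546 in female inguinal fat were listed as higher. In male inguinal fat Tmem159 rose from 648 ± 74.5 to 820 ± 43.1 normalized counts (SD, n = 4, log2 fold 0.33 ± 0.08 SE, edgeR adjusted p = 0.0458). In female inguinal fat it rose from 877 ± 158 to 1288 ± 121 (log2 fold 0.57 ± 0.13 SE, edgeR adjusted p = 0.0468). Both calls were close to the threshold and were lost with TMM scaling (edgeR adjusted p = 0.056 and 0.0813), and the female call also with table totals (0.528) and with the replicate block (0.113). Leaving out single libraries gave adjusted p from 0.00985 to 0.141 in males and from 0.0259 to 0.159 in females, and the call was lost without any of WT replicates 1, 2 or 4 or any AKO library in males. In females it was kept only without WT replicate 1 or AKO replicate 4.

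Bscl2 and Tmem159 thus moved in opposite directions in the same male libraries. Bscl2 reads made 7.63, 6.82, 6.49 and 8.15 times the Tmem159 reads in the WT libraries and 4.82, 3.75, 4.05 and 4.36 times in the AKO libraries. This ratio needs no scaling between libraries, and its groups (7.28 ± 0.756 and 4.25 ± 0.456, SD, n = 4) did not overlap. The normalized counts of each gene already did not overlap, in opposite directions, so the ratio had to separate. The pair was set side by side after its values were seen, so the ratio is given without a test.

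**Figure D4:**
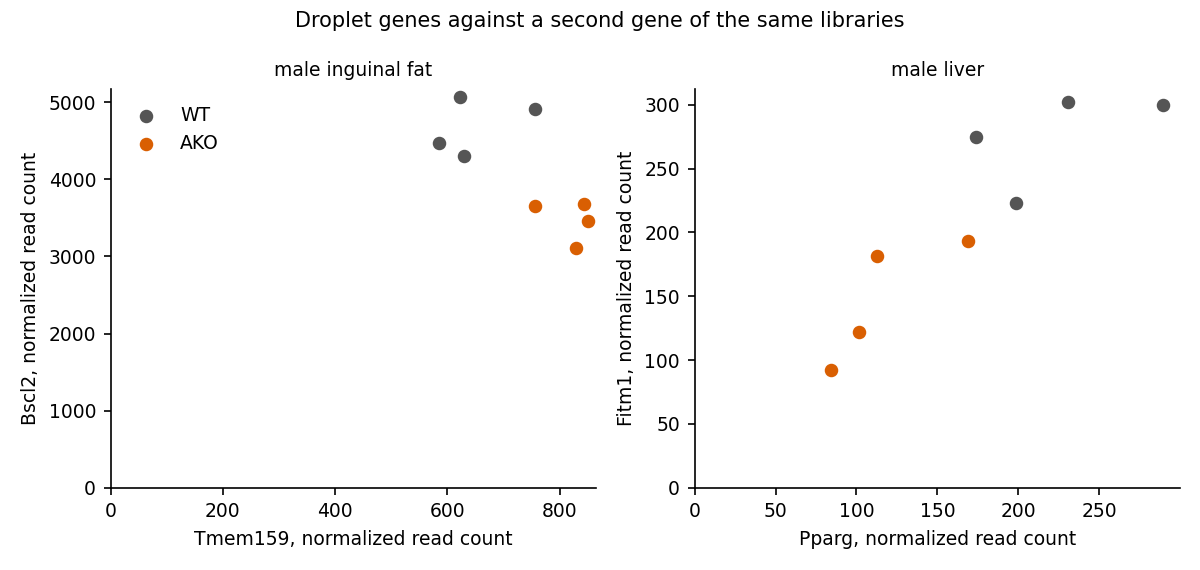
Normalized read counts of Bscl2 against Tmem159 in male inguinal fat and of Fitm1 against Pparg in male liver, 1 point per library, both axes from 0. AKO libraries lie lower and further right in the first panel and lower and further left in the second.

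In perigonadal fat the other droplet proteins listed were all lower (3 of 20 symbols, 15%, where 5.46% of all tested genes were listed as lower). The authors' deposited table gives Plin4, a further perilipin gene, a log2 fold of -0.55 ± 0.13 SE at a mean of 75297, Ptrf (cavin 1, a caveolar coat gene) -0.24 ± 0.07 and Mettl7b, a droplet-associated methyltransferase gene, -0.77 ± 0.21. Plin4 and Plin5 are neighbours on chromosome 17, with 1797 bases between them, and Lrg1 follows 2081 bases beyond Plin5. Lrg1, named after its value was seen, is also lower in the authors' deposited table for this depot (-0.98 ± 0.14 SE).

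Of 26 symbols of other triglyceride synthesis genes, none was listed in male inguinal fat or liver. Some of the 26 are older and newer names of the same gene, so shares are of symbols. In female inguinal and in perigonadal fat 2 each (7.69%) were listed as lower, beside 2.63% and 5.46% of all tested genes. Acsl5, an acyl-CoA synthetase gene, and Gyk, the glycerol kinase gene, were listed as lower in female inguinal fat, and edgeR called neither (log2 fold -0.27 ± 0.07 SE, adjusted p = 0.0805, and -0.36 ± 0.12 SE, adjusted p = 0.197). Both depended on scaling. With table totals edgeR called Acsl5 (-0.49, adjusted p = 0.00633) and Gyk (-0.57, adjusted p = 0.021), and with TMM it called Acsl5 (-0.37, adjusted p = 0.0245). Perigonadal values in the authors' deposited table were -1.53 ± 0.16 for Pck1, whose enzyme supplies glycerol phosphate, and -0.61 ± 0.13 for Mogat1, a monoacylglycerol acyltransferase gene.

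Of 9 genes of droplet lipolysis, 3 (33.3%) were listed in male inguinal fat, 1 (11.1%) in female inguinal fat and 3 in perigonadal fat, all lower, and none in liver. The shares of all tested genes listed as lower were 4.01%, 2.63% and 5.46%. Pnpla2, the gene of the lipase that opens triglyceride breakdown, fell by 0.60 on the log2 scale (SE 0.13, edgeR adjusted p = 0.022) in male inguinal fat, from 44770 ± 5245 to 29441 ± 3787 normalized counts (SD, n = 4). With single libraries left out, its edgeR adjusted p ranged from 0.0147 to 0.0841, and the call was lost without WT replicate 1 or 4 or AKO replicate 2 or 3. The carboxylesterase genes Ces1d and Ces1f fell there too (log2 folds of -0.64 and -0.97, SE 0.10 and 0.16, edgeR adjusted p = 0.00425 and 0.00549). Ces1f also fell in female inguinal fat by 0.75 (SE 0.14, edgeR adjusted p = 0.0179), a call lost without WT replicate 1 (0.0656), WT replicate 3 (0.06) or AKO replicate 2 (0.0573). Ces1 genes are close paralogs that can share reads, so their values are uncertain. For perigonadal fat the authors' deposited table lists Pnpla2 (-0.68 ± 0.08), Lipe (-0.37 ± 0.07) and Mgll (-0.33 ± 0.09) of the 9 genes. Plin1 reads made 0.382 ± 0.0222 times the Pnpla2 reads in WT and 0.453 ± 0.0391 times in AKO in male inguinal fat, and the ranges met at 0.414.

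Regulators of lipid storage listed as lower were 3 of 13 (23.1%) in each inguinal comparison and 2 (15.4%) in perigonadal fat. The shares of all tested genes listed as lower were 4.01% (male inguinal), 2.63% (female inguinal) and 5.46%. Listed as higher were 0, 2 and 3 of the 13 regulators, in the same order, so the perigonadal list held more higher than lower. Over all tested genes, 570 of 12554, 434 of 13546 and 759 of 13361 were listed as higher. Srebf1, a lipogenic transcription factor gene, and Rxra, the partner of PPAR receptors, were listed as lower in all 3 fat comparisons. In male inguinal fat both fell (log2 folds of -0.87 for Srebf1 and -0.33 for Rxra, SE 0.11 and 0.08, edgeR adjusted p = 0.00142 and 0.041). The Rxra call was lost in 7 of the 8 fits with a library left out (edgeR adjusted p = 0.0596 to 0.134) and kept without WT replicate 2 (0.026). Cebpa was listed there too (-0.24 ± 0.08 SE, edgeR adjusted p = 0.185). In female inguinal fat edgeR called none of the 5 listed, with log2 folds of -0.74 for Ppara, -0.61 for Srebf1, -0.19 for Rxra, 0.79 for Ppargc1a and 0.89 for Ppargc1b and adjusted p from 0.057 to 0.296. These values depended on scaling. With TMM edgeR called Srebf1 and Rxra (adjusted p = 0.0453 for each). With table totals it called Srebf1 (0.0185), Ppara (0.0292) and Rxra (-0.40, adjusted p = 0.00573). In perigonadal fat the authors' deposited table gives Srebf1 -0.77 ± 0.14 and Rxra -0.29 ± 0.08, while Ppard, Mlxipl and Ppargc1a were higher (0.26 to 0.47). Over all listed genes the median log2 fold was 0.23 in male inguinal, 0.30 in female inguinal and 0.21 in perigonadal fat and -0.42 in liver, in the authors' deposited tables.

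**Figure D5:**
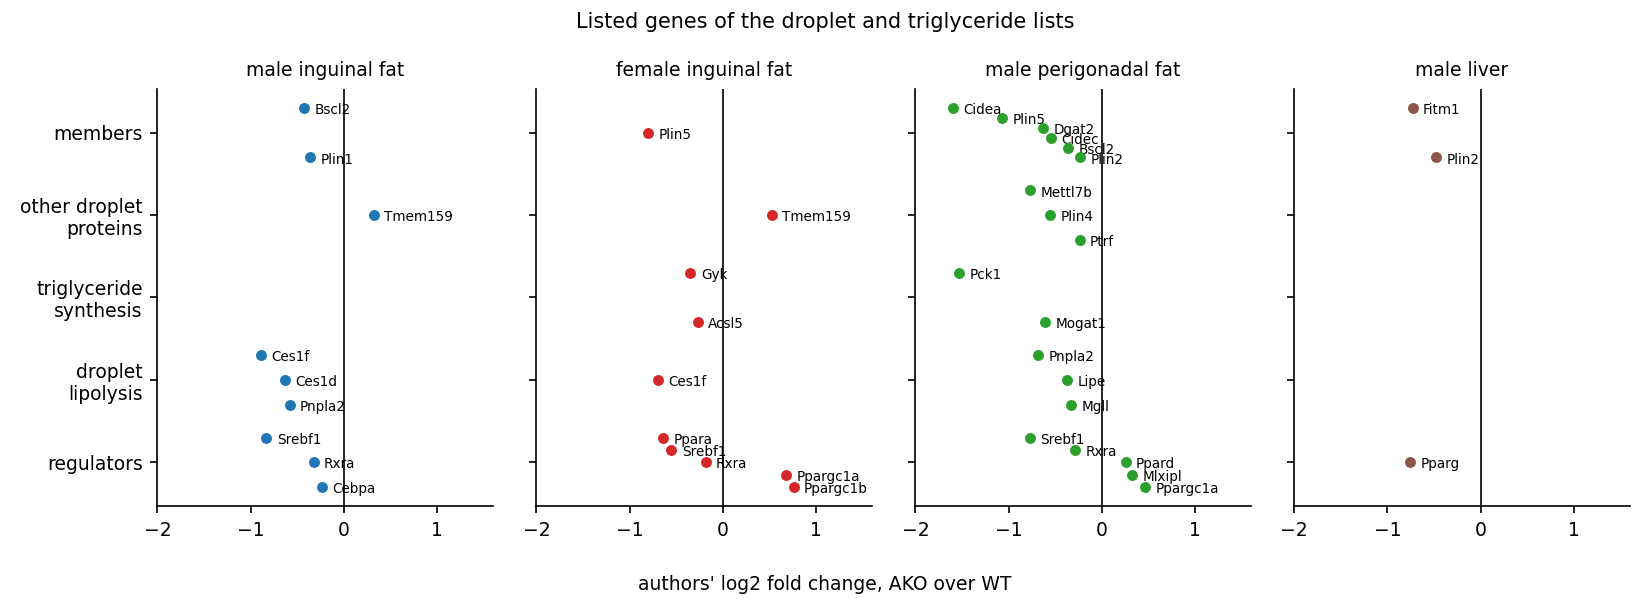
Authors' log2 fold change (AKO over WT) of the listed members and of the listed genes of 4 fixed lists, 1 panel per tissue. The members and the lipolysis genes lie below 0 in each tissue where they were listed, and Tmem159 lies above 0 in both inguinal panels.

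By pattern over the 8 libraries of each table, Bscl2 was nearest to Bcs1l and Etfb, a mitochondrial assembly factor gene and an electron transfer flavoprotein gene (root-mean-square difference 0.05 in log2 for each, where the median of 1073 genes was 0.38). Plin1 was nearest to Sypl and to the septin gene written sept10 (0.06 for each, median 0.36). Plin5 in female inguinal fat was nearest to Cspg4 and Gm4841 (0.28 and 0.29, median of 789 genes 0.77), so no listed gene followed it as closely as those of Bscl2 and Plin1. Genes in these tables were all listed for a difference between the same libraries, which nearness reflects in part.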

How the data were processed

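Libraries were made with a stranded TruSeq mRNA kit from column-purified RNA, per the labels' protocols. STAR, DESeq2 and mm10 are named in the submitters' processing notes. Which counter, strand setting and annotation were used is not given in the sources used here. The deposited count tables hold raw read counts per gene (1074, 790 and 34 genes after 3 repeated liver rows were left out). The authors' deposited comparison tables hold a mean normalized count (a signal on the count scale), the log2 fold and its standard error, and raw and adjusted p-values, all per the file headers. In liver, values are rounded and the raw p is left out. Deposited folds run as AKO over WT, by the sign of every gene with counts that matched by name (1074, 789 and 34), which is assumed for perigonadal fat.

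Size factors were solved from counts and deposited means by least squares (largest misfit 4.79e-08% and 4.73e-08% in male and female fat, 0.298% in liver). Counts were tested with edgeR 4.0.16 (quasi-likelihood, legacy mode) in R 4.3.3, AKO against WT per table, with these size factors, no filter and no covariate. Adjusted p-values are Benjamini-Hochberg over the number of genes the authors tested, recovered from their p and adjusted p (12554, 13546 and 13361) or estimated for liver (11472, quartiles 11253 and 11774). This assumes that genes without rows have larger p-values, so an adjusted p is an upper bound. Dispersions rest on listed genes alone. Listed genes were chosen on these libraries, so their tests are no independent evidence. Alternatives were TMM, table totals, DESeq2 1.42.0, a filter of 10 counts in 4 libraries, adjustment over the table, a replicate block and leaving out each library.

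Groups and replicate numbers come from the titles, and every library of a group has its own animal number. Replicate pairs differed beyond counting noise (chi-square per degree of freedom of at least 7.26). Members, lists and markers were chosen with earlier results of these data known. The text names all members, Bcl6 and Adipoq where listed, up to 6 genes per list and table by lowest authors' adjusted p, and the 2 genes nearest in pattern (log2 of normalized count + 1, centred). GENCODE M21 (GRCm38, of which mm10 is another name) gave positions and exon lengths, and promoter windows from RefSeq, which held 6 of the 7 members looked up. None is shown for Cidea.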

Additional observations from a re-analysis of the deposited data

Results flagged for a closer look

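Plin5 in female inguinal fat had a library far from the others of its group: WT replicate 4 stood at 784.6 normalized counts and the other WT libraries at 433 to 463. The gap made 0.915 of the group's range, above Dixon's 95% critical value. Cspg4, a mural marker gene, had AKO replicate 1 at 1099 normalized counts in male inguinal fat and the others at 963 to 984 (0.843 of the range). These were 2 of 74.0 gene groups looked at, and chance alone flags about 1 in 20.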

How the results depend on the processing

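Every member with counts kept its direction under each of the 14 alternatives (6 settings and 8 single libraries left out). The groups of these members did not overlap, so leaving out a library could not reverse a direction. Adjustment over the table uses the main fold and could not either. Bscl2 kept its call throughout (log2 fold -0.47 to -0.38, adjusted p 1.08e-05 to 0.0419). Plin1 passed with DESeq2, with the replicate block (adjusted p = 0.0303), over the table alone (0.00817) and without WT replicate 2 (0.0475). Plin5 passed with table totals (0.0226), DESeq2 (0.00521) and over the table alone (0.00468). Fitm1 passed over the table alone (0.00302), with log2 folds from -1.05 to -0.59. The members called numbered 1 in male inguinal fat and went to 2 with DESeq2, the replicate block or adjustment over the table (1 to 2 without single libraries). In female inguinal fat they went from 0 to 1 with table totals, DESeq2 or adjustment over the table (0 to 0 without single libraries), and in liver from 0 to 1 over the table alone. Beside these counts of 0, the unadjusted edgeR p of Plin5 and Fitm1 was under 0.05.

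The genes called in male inguinal fat (651) became 995 with DESeq2 and 1072 over the table, and 350 to 560 without single libraries. In female inguinal fat 326 became 739 with DESeq2, 790 over the table and 130 with the replicate block, and 156 to 421 without single libraries. Among calls, 211 of 326 were higher, and with TMM 154 of 425 and with table totals 95 of 432. In male inguinal fat 366 of 651 were higher, and 348 of 728 with TMM. In liver 3 became 9 with TMM, 16 with table totals, 24 with DESeq2, 34 over the table and 0 with the replicate block, and 0 to 3 without single libraries. All 3 liver calls were higher, against 5 of 16 with table totals. Table totals and TMM assume that listed genes balance, and they shifted the median log2 fold by 0.02 and -0.02 in male inguinal fat, -0.21 and -0.09 in female inguinal fat and -0.11 and 0.32 in liver, in that order. The cause of the other moves was not tested. The 6 perigonadal members went to 3 at an adjusted p under 0.01 and to 3 at 1.5-fold or more. The same thresholds, chosen for the other tables after seeing the data, kept 1 and 0 of 2 (male inguinal), 0 and 1 of 1 (female inguinal) and 1 and 1 of 2 (liver).

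Same-numbered WT and AKO libraries are different mice, and the correlation of their deviations spanned 0.0709 to 0.26 (male inguinal), -0.296 to 0.175 (female inguinal) and -0.576 to 0.143 (liver). All 4 were positive in male inguinal fat, where the libraries correlated best with their own number in 2 of 4 cases (1 of 4 in each other table) and the block gave 772 called genes. Since the lowest was near 0 and the mice differ, the numbers were not taken as pairs. The interaction of sex and genotype and its alternatives were not run, since no member had counts in both sexes. Depth of the whole libraries is unknown, and the lowest raw count of a member was 112.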
